A study of Ovis aries with 48 samples.

Results

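MIR381, MIR487A, MIR382, MIR668, MIR485, MIR323C, MIR154B, MIR3959 and MIR369 are 9 microRNAs of the distal stretch of the DLK1-DIO3 imprinted region, and their levels are described here in fat of female sheep. They were chosen by name from 2 tables of small RNA sequencing that hold the same microRNAs: these 9, another 45 of the same region and 51 from elsewhere in the genome. The study sequenced 48 libraries from 16 sheep in 12 groups of 4. The T cohort (8 sheep, 32 libraries) gave subcutaneous, visceral, epicardial and perirenal fat, and the BPA cohort (8 sheep, 16 libraries) gave subcutaneous and visceral fat. In the T cohort, 4 sheep came from pregnancies given 100 mg of testosterone propionate (about 1.2 mg/kg) in corn oil by intramuscular injection 2 times a week from gestational day 30 to day 90. They are called prenatal T sheep below, and what the mothers of their 4 controls received is not stated. In the BPA cohort, 4 sheep came from pregnancies given bisphenol A (BPA), a plasticizer with oestrogenic activity, at 0.5 mg/kg each day by subcutaneous injection in corn oil over the same days, and the mothers of the 4 controls received corn oil alone. All animals were housed together on a maintenance diet, and their age at sampling is not stated.

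The DLK1-DIO3 region is imprinted. DLK1, a preadipocyte protein that holds back the formation of fat cells, is made from the paternal allele, while the non-coding RNAs, these microRNAs among them, are made from the maternal allele. In sheep the region is known for the callipyge mutation, which enlarges the muscles of the hindquarters. The microRNAs of the distal stretch are cut from long maternal transcripts, and MEF2 transcription factors are known to drive the cluster in muscle and neurons. Few of the 9 have a well established role of their own: MIR485 is described in neurons, where it targets the synaptic vesicle protein SV2A, and MIR369 is described at the AU-rich element of TNF mRNA. MIR3959 was annotated from sheep.

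In the RefSeq gene table of sheep, all 9 were found by symbol and lie within the transcript LOC105606646. Counting the 46 microRNA genes from MIR379 onward, MIR381 is number 24, MIR3959 number 29, MIR487A number 30, MIR382 number 31, MIR668 number 33, MIR485 number 34, MIR154B number 37, MIR369 number 44 and MIR323C number 46. MIR3959, MIR487A and MIR382 are therefore direct neighbours, as are MIR668 and MIR485. Each row of the tables is a hairpin gene, so the 2 arms of a hairpin are not told apart. MIR154B, MIR487A and MIR323C have namesakes in the tables (MIR154A, MIR487B and MIR323A), and how reads fitting both were counted is not stated, so the levels of these 3 are uncertain to that extent.

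The libraries held 222537 to 1533680 microRNA reads (median 605582). Library numbers in the labels fall in 2 ranges, up to 48 and from 81, which are called earlier and later library numbers here. They are spread unevenly over the groups: all 4 libraries of epicardial fat of controls have later numbers, and all 4 of subcutaneous and of perirenal fat of prenatal T sheep have earlier ones. Perirenal fat of prenatal T sheep 255 stood apart, with 0.261% of its microRNA reads from the 9 microRNAs and 4.41% from the other 45, where the other 3 libraries of that group had 0.0622% to 0.120% and 0.524% to 1.50%. The markers listed for fat cells (MIR103, MIR107, MIR148A and MIR30A) were above 0 in all 48 libraries, but none of the 4 is restricted to fat cells. In bulk tissue, fewer cells of a type and less RNA per cell cannot be told apart.

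The 9 microRNAs were a small part of the small RNA of fat. Together they made up 0.0106% to 0.261% of the microRNA reads of a library (median 0.0592%) and 3.55% to 11.4% of the reads of the region's microRNAs (median 5.90%). MIR485, MIR382 and MIR154B had reads in all 48 libraries, with medians of 104, 99.5 and 56.5 reads. MIR3959 and MIR369 were also read in all 48 libraries, with medians of 16.5 and 14.5 reads and a minimum of 1 read each. MIR323C (median 7.5 reads) was at 0 in 1 library, MIR668 (4.5 reads) in 4, MIR487A (3 reads) in 6 and MIR381 (1 read) in 17. MIR381 had at most 3 reads in 37 libraries, MIR487A in 28, MIR668 in 18, MIR323C in 12, MIR369 in 8 and MIR3959 in 5. A count of 0 allows up to 3 reads, which is 1.96 to 13.5 CPM (counts scaled to the microRNA reads of a library) depending on the library. The values of MIR381 and MIR487A are thus mostly within counting error, and the results below turn on the other 7.

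The deposited values are normalised read counts scaled within each depot, so that levels in different depots are not on 1 scale. The libraries of a cohort were therefore rescaled together before depots were compared. This moved the mean log2 level of a depot of the T cohort by between -0.85 (visceral) and 0.63 (perirenal), deposited minus rescaled. Depots are compared below on the rescaled values and treatments on the deposited values, both as log2(value + 1), with limma across all microRNAs with a mean of at least 5 and Benjamini-Hochberg adjustment, and a call is an adjusted p under 0.05. Values are given as mean ± SD of 4 sheep, and a log2 difference on this scale understates the change of a low microRNA.

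MIR382 was lower in subcutaneous fat than in every other depot of the T cohort, with no overlap between the groups. In controls its rescaled level in subcutaneous fat was 28.8, 59.4, 62.4 and 86.96 (59.4 ± 23.8). The values were 107.5, 134, 222 and 282 in visceral fat (186 ± 80.6), 177, 177, 230.2 and 234 in epicardial fat (205 ± 31.8), and 136, 145, 161 and 186 in perirenal fat (157 ± 21.8). The highest subcutaneous sheep stood below the lowest sheep of each of the other depots, while the 3 other depots overlapped one another. The log2 differences from subcutaneous fat were 1.63 (SE 0.34, adjusted p = 0.0019) for visceral, 1.86 (adjusted p = 0.000221) for epicardial and 1.48 (adjusted p = 0.00437) for perirenal fat. In prenatal T sheep the levels were 36.8, 60.9, 78.6 and 82.3 in subcutaneous fat, 106.7, 200.4, 230.2 and 286 in visceral fat, 172, 175, 199 and 216 in epicardial fat, and 199, 209.5, 232 and 270.3 in perirenal fat. Subcutaneous fat was again below the other depots without overlap, with log2 differences of 1.63 (adjusted p = 0.00301), 1.603 (adjusted p = 0.00268) and 1.85 (adjusted p = 0.000928). The call in visceral fat of prenatal T sheep was lost without sheep 48 (1.44, adjusted p = 0.0558) and with a term for the library number range (1.30, adjusted p = 0.0562). In libraries of earlier numbers alone it was also lost in visceral fat of controls (1.16).

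**Figure D1:**
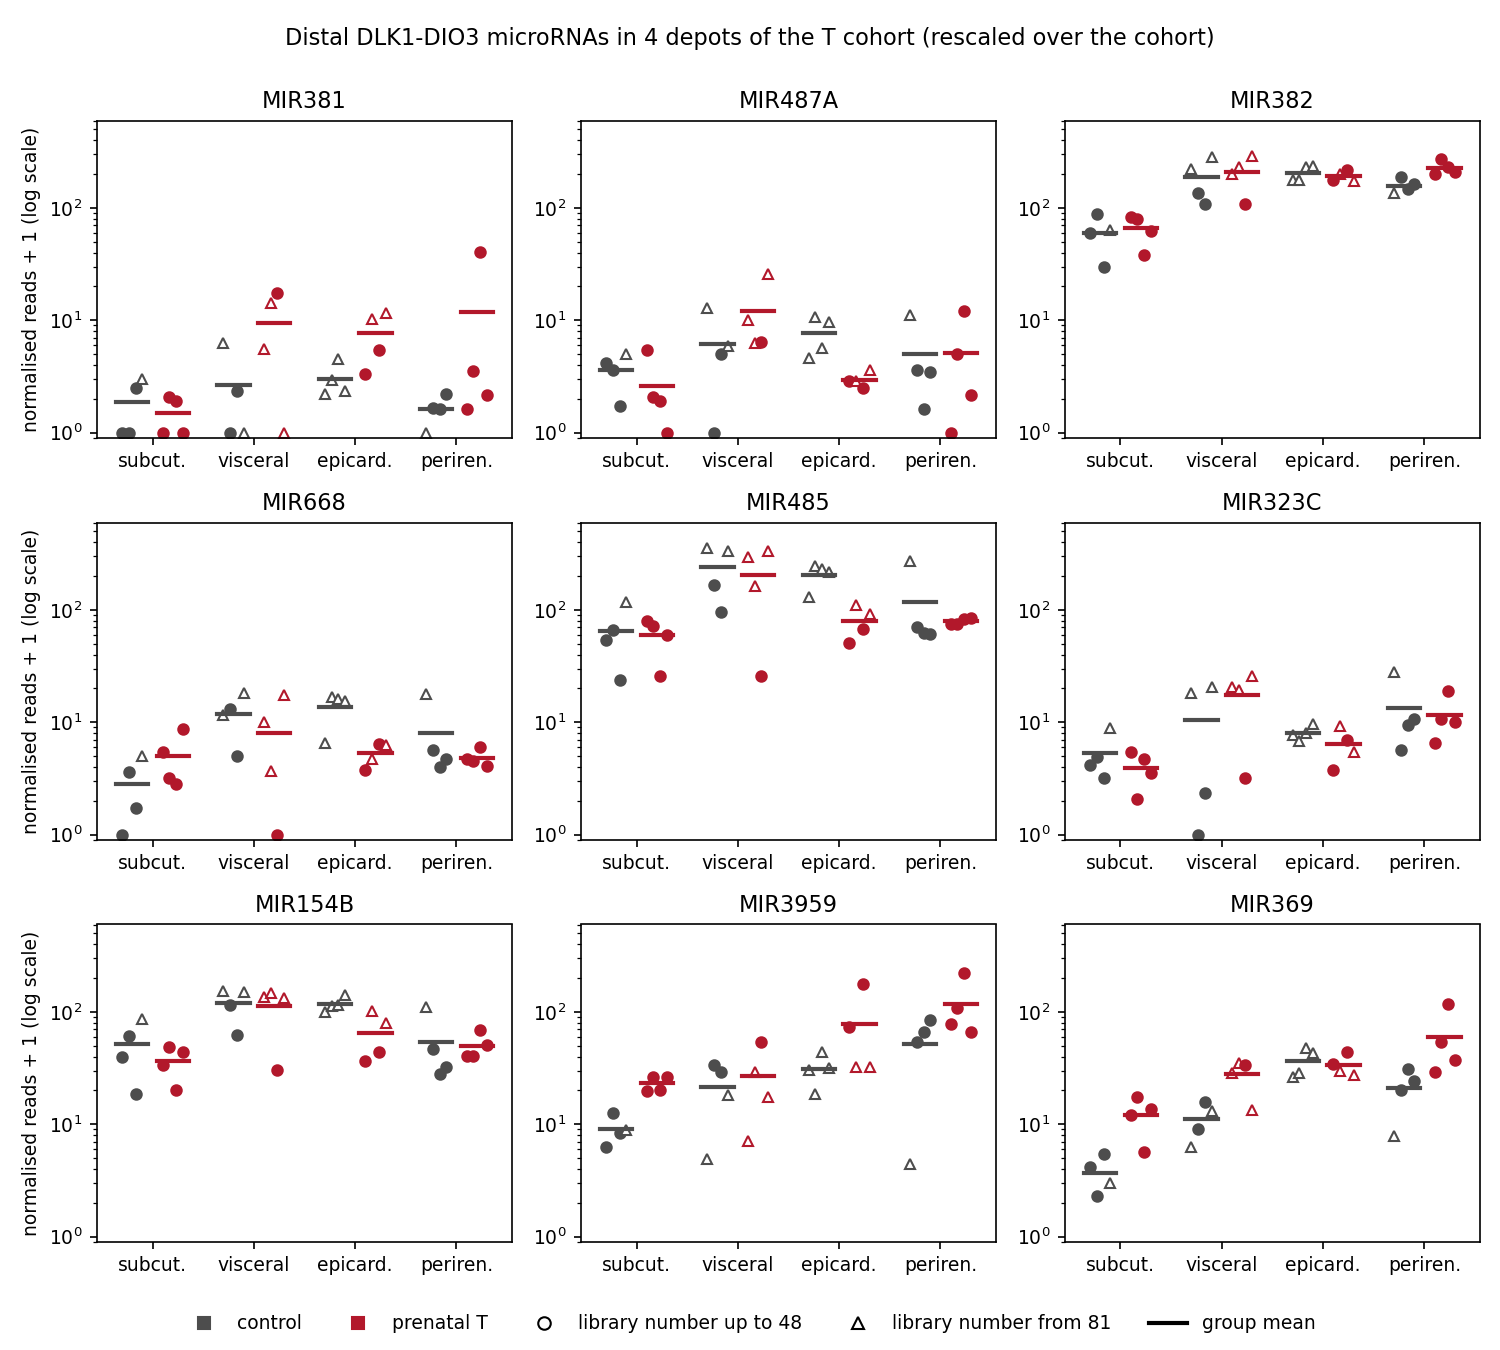
Level of MIR382, MIR485, MIR154B, MIR3959 and MIR369 in the T cohort: the vertical axis is the normalised read count rescaled over the cohort, plus 1, on a log scale, and the horizontal axis is the depot. Each point is 1 sheep, with control and prenatal T sheep and the library number ranges marked as in the key; MIR382 is lower in all 8 subcutaneous libraries (28.8 to 86.96) than in any library of the other depots (106.7 to 286).

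MIR485 and MIR154B were higher in visceral and epicardial than in subcutaneous fat of controls, while perirenal fat was not called against subcutaneous fat. MIR485 in controls was at 22.9, 53.1, 64.9 and 117 in subcutaneous fat and at 95.4, 166, 333 and 355 in visceral fat, with an overlap of 1 sheep. It was at 128, 216, 230.2 and 246 in epicardial fat, above all subcutaneous values, and at 60.4, 61.7, 69.2 and 272 in perirenal fat, where sheep 098 was about 4 times the others. The log2 differences from subcutaneous fat were 1.89 (SE 0.53, adjusted p = 0.0102) for visceral, 1.83 (adjusted p = 0.00722) for epicardial and 0.72 (adjusted p = 0.328) for perirenal fat. For MIR154B, too, sheep 098 stood above the other 3 in perirenal fat, and 2 of the 4 sheep were higher there than in subcutaneous fat and 2 lower. Its values in controls were 17.7, 38.5, 59.7 and 85.2 in subcutaneous, 61.8, 114, 148 and 153 in visceral, 98.6, 111.1, 115 and 141 in epicardial, and 27.2, 31.1, 45.4 and 108.7 in perirenal fat. The differences from subcutaneous fat were 1.35 (SE 0.46, adjusted p = 0.0277), 1.39 (adjusted p = 0.0164) and 0.06 (adjusted p = 0.967) in that order, and epicardial fat was 1.33 above perirenal fat (adjusted p = 0.0443). The later library numbers moved with these 2 results: with a term for the number range the epicardial difference from subcutaneous fat was 0.61 for MIR485 (adjusted p = 0.174) and 0.48 for MIR154B (adjusted p = 0.327), and the difference of MIR154B from perirenal fat was 0.42 (adjusted p = 0.485). Without control sheep 132 the epicardial differences were 1.35 for MIR485 (adjusted p = 0.0559) and 0.98 for MIR154B, both not called. The visceral call of MIR154B was lost without sheep 098, 131 or 132 (1.15 to 1.50), and its call over perirenal fat without sheep 131, 132 or 201. On the values as deposited, neither was called in visceral fat of controls (1.20 and 0.67). In prenatal T sheep neither was called between any pair of depots, with visceral differences from subcutaneous fat of 1.39 (adjusted p = 0.122) and 1.44 (adjusted p = 0.0515).

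MIR369 differed most between depots of controls, and was lowest in subcutaneous fat. It was at 1.298, 1.98, 3.12 and 4.43 there, at 5.27, 8.11, 12.2 and 14.8 in visceral fat, at 25.6, 27.3, 41.6 and 46.3 in epicardial fat and at 6.79, 19.1, 23.2 and 30.3 in perirenal fat. Subcutaneous fat did not overlap any other depot, and visceral did not overlap epicardial fat. The subcutaneous values rest on 1 to 6 reads per library and the visceral ones on 2 to 11, so counting error is large there. The log2 differences from subcutaneous fat were 1.57 (adjusted p = 0.0132) for visceral, 3.32 (SE 0.46, adjusted p = 1.55e-05) for epicardial and 2.40 (adjusted p = 0.001) for perirenal fat, and epicardial was 1.75 above visceral fat (adjusted p = 0.0313). The last call was lost without sheep 131, 132 or 201, and that of visceral fat without sheep 131 (1.43) or 201 (1.38), with CPM (1.52) and on deposited values (0.94). With the term for library numbers the epicardial difference was 3.88 and still called. In prenatal T sheep MIR369 was at 4.60, 10.97, 12.7 and 16.4 in subcutaneous, 12.4, 27.3, 32.7 and 34.4 in visceral, 26.3, 28.7, 33.0 and 43.4 in epicardial, and 28.0, 36.5, 53.0 and 117 in perirenal fat. Epicardial (1.57, adjusted p = 0.0316) and perirenal fat (2.19, adjusted p = 0.00502) were called against subcutaneous fat. The epicardial call was lost without any 1 of the 4 sheep and in earlier library numbers (1.79), while the perirenal difference without sheep 255 was 1.45 (adjusted p = 0.0288).

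The mean level of MIR3959 was highest in perirenal fat of both groups of the T cohort. In controls it was at 5.21, 7.38, 7.92 and 11.7 in subcutaneous, 3.95, 17.03, 28.2 and 32.4 in visceral, 17.5, 29.2, 30.4 and 42.8 in epicardial, and 3.40, 52.7, 65.4 and 83.5 in perirenal fat. The value of 3.40, from sheep 098, rests on 1 read, and it is the only perirenal library of the 4 with a later number. No difference between depots was called in controls, perirenal minus subcutaneous being 1.95 (SE 0.74, adjusted p = 0.052). In prenatal T sheep it was at 18.7, 19.3, 25.1 and 25.4 in subcutaneous, 6.07, 16.6, 28.2 and 53.4 in visceral, 31.5, 31.6, 72.1 and 175 in epicardial, and 65.4, 77.7, 106.4 and 221 in perirenal fat. The lowest perirenal value was above the highest subcutaneous one, and the difference was called (2.21, SE 0.63, adjusted p = 0.0187). It was 1.79 without sheep 255 (adjusted p = 0.0253) and was not called without sheep 233 (2.26, adjusted p = 0.1).

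Of the 4 microRNAs with few reads, MIR668 was called in visceral (2.20, adjusted p = 0.00869) and epicardial fat (2.44, adjusted p = 0.00221) against subcutaneous fat of controls. With the term for library numbers the latter became 1.44 (adjusted p = 0.0568). In subcutaneous fat MIR668 had 0 to 4 reads per library and a mean of 1.82, so it reached the minimum mean of 5 only through the other depots. MIR323C was called once in the T cohort, in visceral against subcutaneous fat of prenatal T sheep (1.87, SE 0.65, adjusted p = 0.047). That call was lost with sheep as a block (adjusted p = 0.0525), with the library number term (0.77, adjusted p = 0.503) and without sheep 185, 233 or 48. MIR381 reached the minimum mean of 5 in prenatal T sheep, where no difference between its depots was called (visceral minus subcutaneous 2.10, SE 0.99, adjusted p = 0.135, and epicardial minus subcutaneous 2.26, adjusted p = 0.0949). MIR668 did not reach it there, and MIR487A reached it in no comparison of depots.

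Counted together, 7 of the 9 microRNAs reached the minimum mean in T cohort controls (all but MIR381 and MIR487A) and 7 in prenatal T sheep (all but MIR668 and MIR487A). The 5 called among the 4 depots of controls were MIR382, MIR369, MIR668, MIR485 and MIR154B, where 58.4% of the 77 microRNAs tested were called. Against subcutaneous fat 5 of 7 were higher in visceral fat (of all microRNAs 22.1% higher and 14.3% lower), 5 in epicardial (31.2% and 19.5%) and 2 in perirenal fat (18.2% and 10.4%), and none was lower. MIR668 and MIR369, among those called, had means of 1.82 and 2.71 in subcutaneous fat, and MIR323C, not called, had 4.29. They reached the minimum mean of 5 only through the other depots, which favours higher over lower calls for them. The median log2 difference of the 7 was 1.57 in visceral fat where the median of all microRNAs was 0.15, 1.83 in epicardial fat against -0.19, and 1.48 in perirenal fat against 0.02. Of 22 other microRNAs of the region tested, 10 were called higher in visceral, 16 in epicardial and 7 in perirenal fat, none was called lower, and the rest did not pass. Epicardial was higher than visceral fat for 1 of the 7 (MIR369, of all microRNAs 10.4% higher and 5.19% lower) and higher than perirenal fat for 1 (MIR154B, 10.4% higher and 11.7% lower). Between perirenal and visceral fat limma called 0 of the 7, where 7.79% of all microRNAs were called and 2 of the 7 had an unadjusted p under 0.05. In prenatal T sheep 3 of 7 were called among the 4 depots (MIR382, MIR369 and MIR3959, background 28.0%). Against subcutaneous fat 2 were higher in visceral (of all microRNAs 14.6% higher and 7.32% lower), 2 in epicardial (17.1% and 8.54%) and 3 in perirenal fat (18.3% called in either direction). Of the 2 in visceral fat, MIR323C had a mean of 2.93 in subcutaneous fat and reached the minimum mean of 5 only through the other depots. limma called 0 of 7 between epicardial and visceral (2.44% of all called), perirenal and visceral (1.22%) and epicardial and perirenal fat (3.66%), with 1, 1 and 0 of the 7 at an unadjusted p under 0.05. The comparisons with 1 depot share its libraries.

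Markers of other cell types also differed between depots. MIR133, the 1 measured of 8 striated muscle microRNAs, was at 1295 to 6332 CPM in epicardial fat of controls and 372 to 25852 in that of prenatal T sheep, against 70.6 to 2573 in the other depots of the T cohort. MIR150, of lymphocytes and the 1 measured of 7 blood microRNAs, was at 1277 to 5313 CPM in subcutaneous fat of controls and at 4459 to 6549, 6701 to 8144 and 3208 to 6294 in visceral, epicardial and perirenal fat. MIR221, the 1 measured of 3 endothelial microRNAs, ran the other way, at 3781 to 7248 in subcutaneous fat and 838 to 2682 in the other depots of controls. MIR200A, MIR200B and MIR200C, 3 measured of 6 microRNAs of epithelium and mesothelium, summed to 10.1 to 44.3 CPM in subcutaneous fat of controls and to 39.4 to 208 in their visceral fat. MIR200A was at 0 in 8 of the 48 libraries, MIR200B in 2 and MIR200C in 1. MIR143, the 1 measured of 2 smooth muscle microRNAs, was at 21070 to 72626 CPM in subcutaneous fat of controls, 19567 to 45067 in visceral, 13859.7 to 26496 in epicardial and 37169.6 to 152539 in perirenal fat. MIR199A, the 1 measured of 2 of fibroblasts and mesenchyme, was at 16734 to 40408, 10192 to 30244, 9528 to 17179 and 7797 to 28440.2 in that order of depots. In perirenal fat of controls, sheep 098, with a later library number, had MIR143 at 37169.6 and MIR199A at 7797. The libraries of that group with earlier numbers had 98793 to 152539 and 22943 to 28440.2. No microRNA of the liver list (1) or the neural list (3) was measured. Their part in the depot differences was not tested.

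Visceral and subcutaneous fat of the same sheep could be compared in both cohorts, 16 sheep in all. In the BPA cohort, MIR382 in controls was at 16.4, 44.1, 56.0 and 73.1 in subcutaneous and 81.1, 123.99, 132 and 135 in visceral fat. In BPA sheep it was at 15.9, 23.5, 27.03 and 42.4 in subcutaneous and 75.7, 86.6, 97.9 and 150.3 in visceral fat. The depots did not overlap in either group, and the log2 differences were 1.45 (SE 0.42, adjusted p = 0.0191) and 1.91 (SE 0.34, adjusted p = 0.000535). MIR382 was thus called, with no overlap of the depots, in all 4 sets of sheep. In BPA cohort controls 3 of 6 microRNAs tested were higher in visceral fat, MIR382, MIR485 (1.67, adjusted p = 0.0121) and MIR154B (1.31, adjusted p = 0.0209), where 14.9% of all microRNAs were higher and 9.46% lower. Without control sheep 924 none of the 3 was called (1.42, 1.56 and 1.15), and without sheep 908 MIR485 (1.24) and MIR154B (1.09) were not. In BPA sheep 5 of 6 were higher (of all microRNAs 28.4% higher and 16.2% lower), these being MIR382, MIR485 (2.11, adjusted p = 0.000171), MIR154B (1.601, adjusted p = 0.00181), MIR323C (1.95, adjusted p = 0.0086) and MIR3959 (1.67, adjusted p = 0.0208). In subcutaneous fat of BPA sheep MIR323C had a mean of 2.76 (1 to 8 reads) and MIR3959 of 4.64 (2 to 18 reads). Both reached the minimum mean of 5 only through visceral fat. MIR323C was not called without sheep 910 (1.63, adjusted p = 0.0509), and MIR3959 was not called without sheep 918 (1.12) or 984 (1.59) or with the library number term (1.28, adjusted p = 0.0651). The sum of the epithelial and mesothelial markers was 31.8 to 157 CPM in subcutaneous fat of BPA cohort controls and was between 210.4 and 719.7 in their visceral fat, against 28.9 to 332 and 212 to 430.2 in BPA sheep; its part in these differences was not tested.

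Sheep by sheep, MIR382, MIR485 and MIR154B were higher in visceral fat in 16 of 16. The visceral to subcutaneous ratio was 1.54 to 9.44 for MIR382 (median 3.10), 1.01 to 8.75 for MIR485 (median 3.54) and 1.47 to 6.41 for MIR154B (median 3.06). The ratio of 1.01 for MIR485 came from prenatal T sheep 255 (24.9 in subcutaneous and 25.0 in visceral fat). MIR487A was higher in visceral fat in 14 sheep, MIR3959, MIR369, MIR668 and MIR323C in 13 each, and MIR381 in 8. In 9 sheep both depots had library numbers of the same range. There MIR382, MIR485, MIR154B and MIR3959 were higher in visceral fat in 9 of 9, MIR369 and MIR668 in 8 and MIR323C in 6. In the other 7 sheep MIR382, MIR485, MIR154B and MIR323C were higher in 7 of 7, MIR369 in 5 and MIR3959 in 4.

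**Figure D2:**
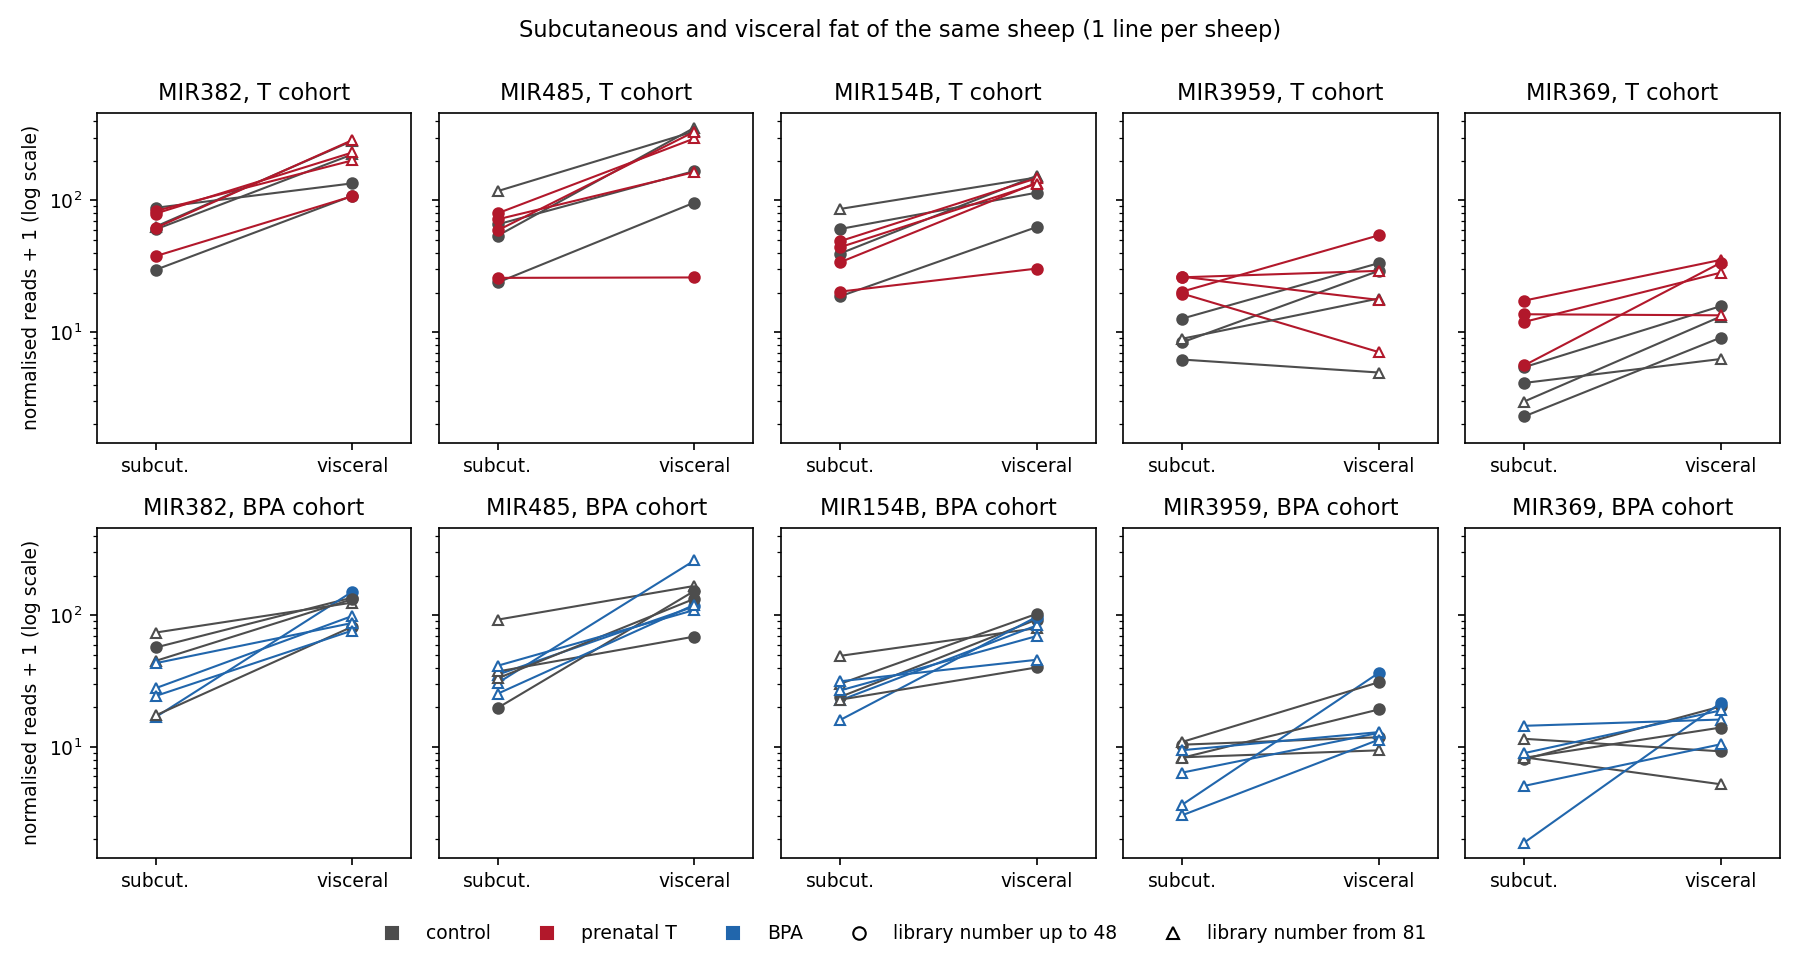
Subcutaneous and visceral level in the same sheep, in the T cohort and the BPA cohort: the vertical axis is the normalised read count rescaled over the cohort, plus 1, on a log scale, and each line joins the 2 depots of 1 sheep. All 16 lines rise for MIR382, with visceral to subcutaneous ratios of 1.54 to 9.44.

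The microRNAs split by library number, a comparison made after the values had been seen. In a fit of the T cohort with a term for each group, 5 of the 7 tested differed between later and earlier numbers, where 37.5% of all microRNAs did. MIR485 was higher in later numbers by 1.72 (SE 0.27, adjusted p = 1.22e-05), MIR323C by 1.98 (SE 0.35, adjusted p = 3.83e-05), MIR154B by 1.37 (SE 0.23, adjusted p = 2.5e-05) and MIR668 by 1.37 (SE 0.38, adjusted p = 0.00497), where 21.2% of all microRNAs were higher. MIR3959 fell by 1.84 on the log2 scale (SE 0.37, adjusted p = 0.000171), where 16.2% were lower. MIR382 (0.43, adjusted p = 0.11) and MIR369 (-0.64, adjusted p = 0.0939) were not called. Of 24 other microRNAs of the region tested, 7 were higher in later numbers and 0 lower at an adjusted p under 0.05. With any 1 sheep left out the differences were 1.49 to 1.87 for MIR485, 1.72 to 2.14 for MIR323C, 1.23 to 1.5996 for MIR154B, 1.17 to 1.63 for MIR668 and -2.42 to -1.24 for MIR3959, and all 5 stayed called. In the BPA cohort limma called 0 of 6 (background 9.59%), with 1 of 6 at an unadjusted p under 0.05; MIR485 was at 0.75 (adjusted p = 0.208), MIR3959 at -0.93 (adjusted p = 0.171) and MIR154B at -0.01.

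Perirenal fat of T cohort controls showed the split within 1 group. The library of sheep 098, of a later number, had MIR485 at 272 and MIR3959 at 3.40, where the 3 earlier ones had MIR485 at 60.4 to 69.2 and MIR3959 at 52.7 to 83.5. Visceral fat of prenatal T sheep showed it the other way round: sheep 255, the 1 earlier library, had MIR485 at 25.0 and MIR3959 at 53.4, where the 3 later ones had 163 to 332 and 6.07 to 28.2. In the 8 groups with libraries of both ranges, the mean of MIR485 was higher in later numbers in 8, with no overlap in 7, and that of MIR3959 was lower in 8, with no overlap in 6. The log2 ratio of MIR485 to MIR3959 was higher in later numbers in 8 of 8, with no overlap in any. MIR382 was higher in 4 of the 8 and lower in 4. The sources used here do not say what the library numbers stand for.

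**Figure D3:**
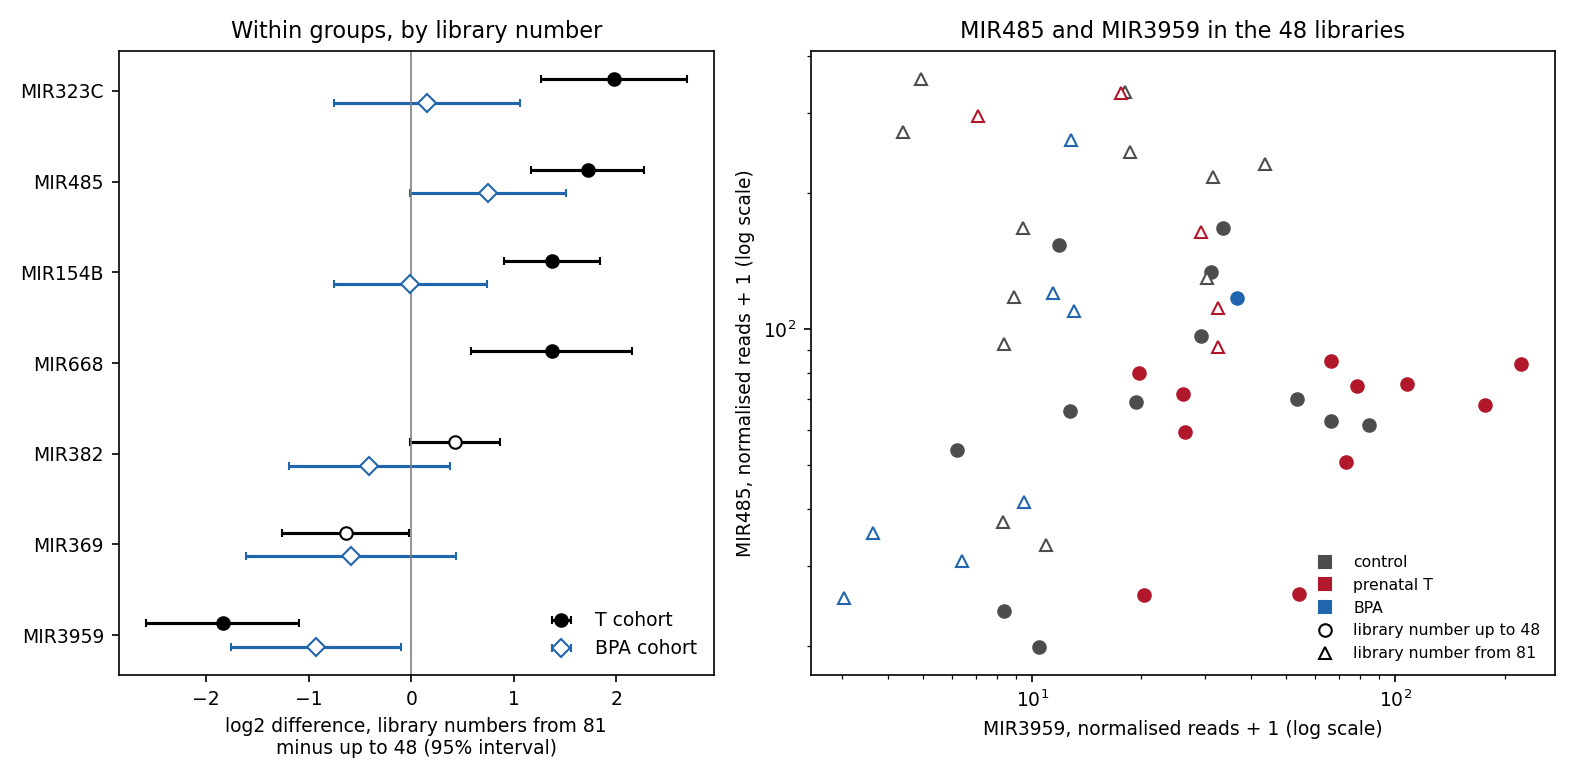
Left, log2 difference between later (from 81) and earlier (up to 48) library numbers within groups, with its 95% interval, for each microRNA tested in the T and BPA cohorts; MIR485, MIR323C, MIR154B and MIR668 lie above 0 and MIR3959 (-1.84) below 0 in the T cohort. Right, MIR485 against MIR3959 in the 48 libraries, both as rescaled normalised reads plus 1 on log scales, with the library number ranges marked as in the key.

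Prenatal testosterone changed none of the microRNAs tested past the threshold in any depot. MIR381, MIR487A and MIR668 were below the minimum mean in subcutaneous and visceral fat, and MIR323C in subcutaneous fat, so they were not tested there. In each depot, and over the 4 depots together, limma called 0 of the microRNAs tested (0% of all). At an unadjusted p under 0.05 there were 2 of 5 tested in subcutaneous fat (2 of 71 of all microRNAs), 1 of 6 in visceral (4 of 76), 6 of 9 in epicardial (20 of 85), 1 of 9 in perirenal fat (7 of 86) and 2 of 7 over the 4 depots (11 of 80). Of these, MIR369 in subcutaneous fat and MIR381 and MIR487A in epicardial fat reached the minimum mean only through the group where each was high. The median difference, prenatal T minus control, was 0.06 in subcutaneous fat (all microRNAs -0.11), 0.18 in visceral (0.01), -0.22 in epicardial (0.14) and 0.02 in perirenal fat (-0.06). The other microRNAs of the region tested had medians of -0.014, 0.45, -0.0045 and 0.65 in that order of depots. A test of whether the effect differed among depots also called 0 of 7, with 0 at an unadjusted p under 0.05.

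The smallest adjusted p-values were in subcutaneous fat. MIR3959 as deposited was at 4.71, 6.90, 7.28 and 10.2 in controls and 17.02, 17.5, 18.3 and 21.8 in prenatal T sheep, and all 4 prenatal T values were above the controls. The log2 difference was 1.28 (SE 0.30, 95% interval 0.64 to 1.92, adjusted p = 0.0535). MIR369 was at 1.14, 1.73, 2.83 and 4.37 in controls and 4.05, 10.3, 10.9 and 11.9 in prenatal T sheep, overlapping at sheep 255, with a difference of 1.55 (SE 0.38, adjusted p = 0.0535). The control values of MIR369 rest on 1 to 6 reads per library and those of prenatal T sheep on 5 to 15. Its mean was 2.51 in controls and 9.30 in prenatal T sheep, so it reached the minimum mean of 5 only through the prenatal T group. Both passed the threshold after rescaling over the cohort (1.39 and 1.68, adjusted p = 0.0414 for both) and with CPM (1.58, adjusted p = 0.0328, and 1.89, adjusted p = 0.0435). MIR3959 passed without control sheep 131 (1.44, adjusted p = 0.0457), and MIR369 without sheep 255 (1.86, adjusted p = 0.00835). In the 7 libraries of earlier numbers alone the differences were 1.27 and 1.46, not called (adjusted p = 0.213 for both).

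In epicardial fat MIR485 was lower in all 4 prenatal T sheep. As deposited it was at 155, 245, 257 and 291 in controls and 65.5, 96.6, 118 and 149 in prenatal T sheep, a fall by 1.16 on the log2 scale (SE 0.30, adjusted p = 0.0948) that did not pass the threshold. It passed after rescaling (-1.38, adjusted p = 0.0333) and without sheep 233 (-1.34, adjusted p = 0.0441). All 4 controls had later library numbers, as did 2 of the 4 prenatal T sheep, at 118 and 149, and the difference among later numbers alone was -0.80 (SE 0.32, adjusted p = 0.558). MIR154B differed by -0.74 (adjusted p = 0.192), and by -0.19 among later numbers. MIR487A was at 4.41, 5.16, 9.73 and 11.6 in controls and 2.13, 2.45, 2.51 and 3.43 in prenatal T sheep (-1.19, adjusted p = 0.1), and MIR668 differed by -1.14 (adjusted p = 0.123). MIR381 was on the other side, at 1.47, 1.497, 2.31 and 3.87 in controls and 3.06, 6.39, 12.5 and 13.7 in prenatal T sheep (1.48, adjusted p = 0.1), and MIR3959 differed by 1.26 (adjusted p = 0.17), and by 0.33 among later numbers. MIR487A rests on 4 to 13 reads per library in controls and 2 to 4 in prenatal T sheep, and MIR381 on 1 to 3 and 5 to 12. Each reached the minimum mean of 5 only through the group where it was high. Markers of other cell types moved with these groups. MIR150, of lymphocytes, was at 6701 to 8144 CPM in controls and 2757 to 5410 in prenatal T sheep, and MIR199A, of fibroblasts and mesenchyme, at 9528 to 17179 and 19092 to 31060, both without overlap. MIR143, of smooth muscle, was at 13859.7 to 26496 in controls and 23874 to 91238 in prenatal T sheep, and MIR133, of striated muscle, at 1295 to 6332 and 372 to 25852. The prenatal T sheep with later library numbers had MIR143 at 23874 and 26383 and MIR199A at 19974 and 19092. Those with earlier numbers had MIR143 at 91238 and 73186 and MIR199A at 29490 and 31060. MIR221, of endothelium (1269 to 2072 and 1295 to 2007), and the sum of MIR200A, MIR200B and MIR200C (61.8 to 135 and 61.6 to 178) overlapped. The part of these markers in the epicardial differences was not tested.

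MIR369 was the 1 microRNA of the 9 with an unadjusted p under 0.05 in visceral and in perirenal fat, and neither difference passed the threshold. In visceral fat MIR369 was at 2.88, 4.48, 6.50 and 9.11 in controls and 6.89, 15.9, 16.5 and 18.7 in prenatal T sheep (1.21, adjusted p = 0.477). In perirenal fat it was at 11.02, 29.4, 36.2 and 48.3 in controls and 42.3, 54.2, 88.1 and 166 in prenatal T sheep (1.43, SE 0.55, adjusted p = 0.427). MIR3959 in perirenal fat was at 5.51, 81.02, 104 and 130.4 in controls and 97.1, 118, 177 and 312 in prenatal T sheep (1.61, SE 0.84, adjusted p = 0.427), and 0.61 without control sheep 098. Over the 4 depots MIR369 was higher in prenatal T sheep by 1.08 (SE 0.30) and MIR3959 by 1.10 (SE 0.45), with an adjusted p of 0.322 for both. Neither passed the threshold, and without control sheep 098 the differences over depots were 0.91 and 0.67. For MIR382 the 95% interval of the difference was -0.76 to 0.88 in subcutaneous, -0.90 to 1.14 in visceral, -0.35 to 0.60 in epicardial and -0.14 to 1.09 in perirenal fat. These intervals do not exclude a change of about 1 log2 unit in visceral or perirenal fat.

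**Figure D4:**
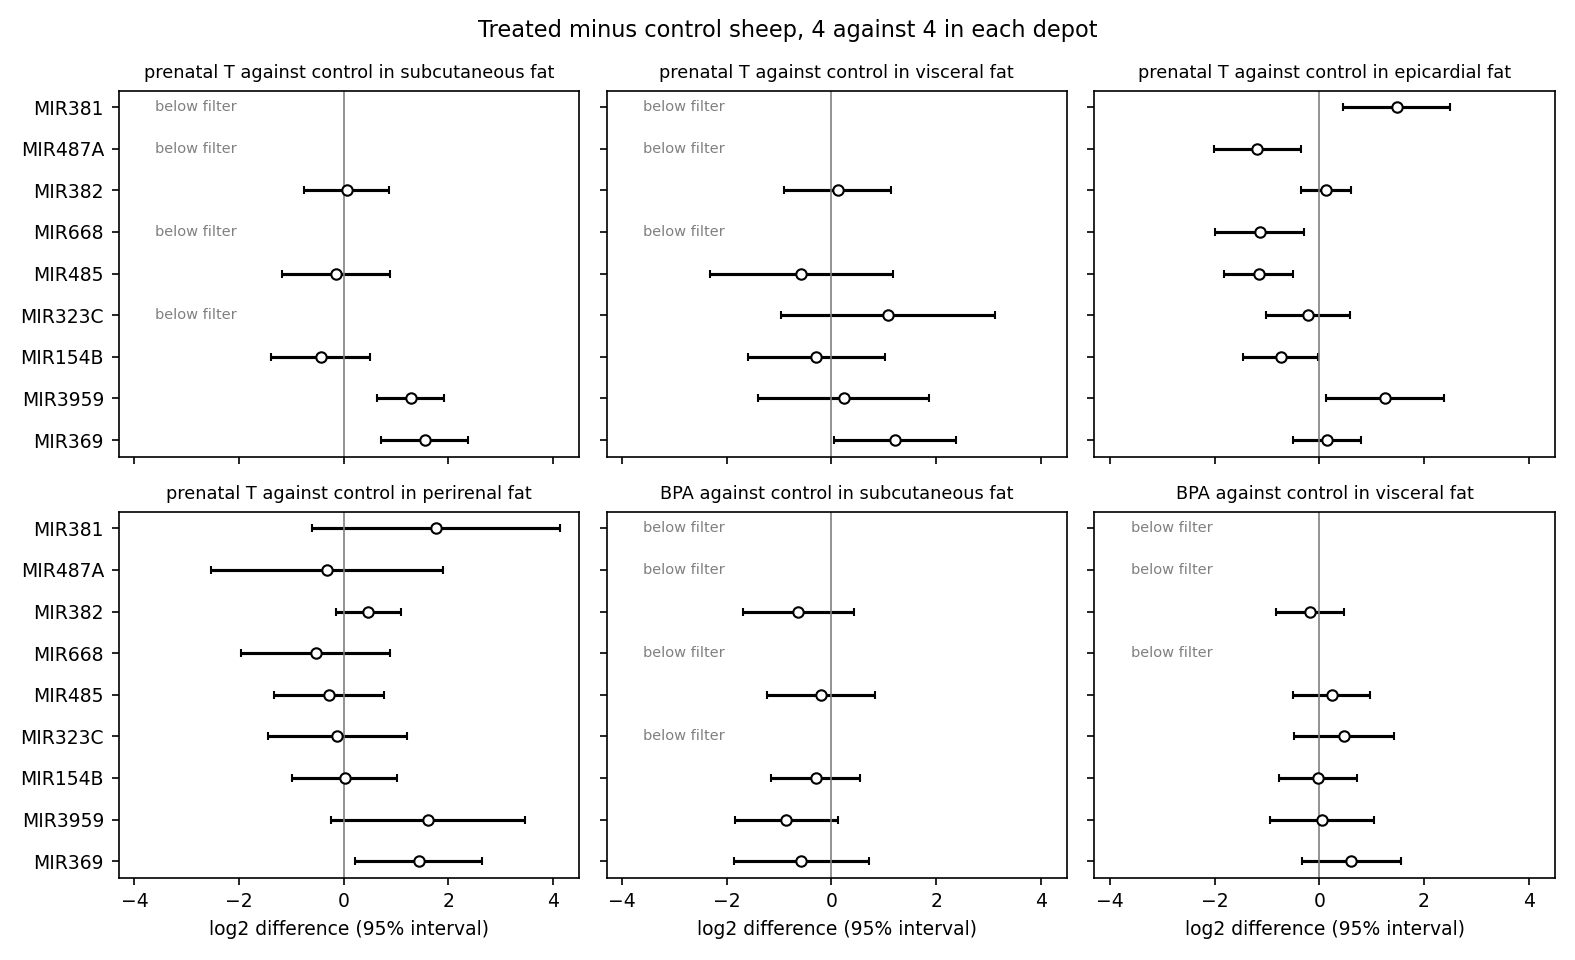
Log2 difference between treated and control sheep (4 against 4) with its 95% interval, for each microRNA tested in each depot, on the deposited values; the 4 depots of the T cohort and 2 of the BPA cohort have a panel each. Before adjustment, intervals lie on 1 side of 0 for MIR3959 and MIR369 in subcutaneous fat of prenatal T sheep, for MIR369 in their visceral and perirenal fat, and for MIR381, MIR3959, MIR487A, MIR668, MIR485 (-1.16) and MIR154B in their epicardial fat; none passed the threshold after it.

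Prenatal BPA changed none of the microRNAs tested past the threshold either. Limma called 0 in subcutaneous and 0 in visceral fat (0% of all microRNAs in each), with none of the 5 and none of the 6 tested at an unadjusted p under 0.05, where 6 of 71 and 4 of 76 of all microRNAs were. In subcutaneous fat all 5 tested were lower in BPA sheep, with a median of -0.58 where that of all microRNAs was -0.05. The other microRNAs of the region tested had a median of -0.39 there and of 0.27 in visceral fat. MIR3959 was at 7.22, 8.59, 9.33 and 11.2 in controls and 2.25, 3.16, 6.04 and 8.60 in BPA sheep, overlapping at 1 sheep (-0.86, SE 0.45, adjusted p = 0.522). MIR382 was at 16.2, 49.9, 55.4 and 85.1 in controls and 18.96, 25.8, 30.2 and 42.99 in BPA sheep (-0.63, 95% interval -1.70 to 0.43). In visceral fat MIR382 was at 73.7, 110.5, 119.8 and 127.1 in controls and 78.1, 79.0, 86.6 and 141 in BPA sheep (-0.18, 95% interval -0.83 to 0.47), and the median difference of the 6 was 0.14 against 0.09 for all. A test of whether the BPA effect differed between the 2 depots called 0 of 6, with 0 at an unadjusted p under 0.05. All 4 subcutaneous libraries of BPA sheep have later numbers, as do 3 of the 4 of their controls.

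Across the 32 libraries of the T cohort the microRNAs most like the mean profile of the 7 tested were MIR432 (Pearson r 0.88), MIR370 (0.87), MIR329B (0.87), MIR493 (0.81) and MIR409 (0.79), all of the same region. After removal of group means the values were 0.80, 0.70, 0.74, 0.56 and 0.79. In the 19 libraries of earlier numbers they were 0.81, 0.87, 0.87, 0.87 and 0.80, and in the 13 of later numbers 0.81, 0.50, 0.64, 0.25 and 0.50. Across the 16 libraries of the BPA cohort, with the mean profile of the 6 tested there, they were MIR432 (0.92), MIR493 (0.92), MIR379 (0.89), MIR495 (0.88) and MIR409 (0.88), so that MIR432, MIR493 and MIR409 were among the first 5 in both. After removal of group means the BPA cohort values were 0.79, 0.80, 0.71, 0.49 and 0.60. The next microRNA in order there came from outside the region (0.88). Among the 9 themselves, MIR485 and MIR154B were the closest pair of the T cohort over all libraries (r 0.93). After removal of groups and library number ranges they stood at 0.74, below MIR382 with MIR485 (0.80) and MIR382 with MIR154B (0.79). MIR485 and MIR668 stood at 0.85 (0.61 after that removal). MIR3959 and MIR369 stood at 0.77 (0.46). MIR485 and MIR3959 ran against each other (-0.33, and -0.62 within groups), but not once the library number ranges were also removed (-0.04). In the BPA cohort MIR382 and MIR154B stood at 0.91 and MIR485 and MIR154B at 0.89. These correlations describe libraries that share depot, sheep, depth and library number range.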

How the data were processed

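Total RNA of fat was isolated with Trizol and small RNA libraries were made with the NEBNext kit, per the labels' protocols. The submitters' processing notes name cutadapt 3.2, STAR 2.6.0c and featureCounts 1.6.1; the build of the genome is not stated in them. The authors deposited 1 table per cohort of normalised read counts, a signal scaled by size factors within each depot, judged from the values (the sources used here do not name the normalisation). All values (100%) were whole multiples of 1 step per library, within 1e-05, which gave the reads quoted. The members and lists were chosen with earlier results of these data known.

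Groups came from the labels, and sheep identifiers paired depots of the same animal. Between depots of a sheep, deviations from group means had a median correlation of 0.14 over 48 pairs in the T cohort and 0.18 over 8 pairs in the BPA cohort, and -0.02 and 0.01 between different sheep. Size factors were recomputed over each cohort before depots were compared. limma 3.58.1 (R 4.3.3, trend) was fitted to log2(value + 1), pseudocount 1, for microRNAs with a mean of at least 5, with calls at an adjusted p under 0.05. Tests were checked on simulated data that held the tested difference only, with none between sheep. The tests of a treatment effect differing among depots were not checked in this way. The microRNAs named are the 9 and, for likeness, the 5 with the highest correlation. No 2 libraries of a group agreed within counting error (72 pairs, chi-square per degree of freedom 39.9 to 4149). Floors cover counting error only, as no molecular identifiers are stated. Alternatives tried were other pseudocounts, no filter, CPM, a library number term, single number ranges, sheep as a block and leaving out each sheep.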

Additional observations from a re-analysis of the deposited data

Results flagged for a closer look

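Of 76 groups of 4 libraries with at least 10 reads of the microRNA in 1 of them, 7 held a library far from the other 3. The rule used flags about 1 group in 20 of independent normal values. These values are scaled read counts and the microRNAs share libraries, so the number to expect here is not known. Values are rescaled over the cohort.

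MIR381 in perirenal fat of prenatal T sheep 255 was at 39.3 (148 reads), where the other 3 were at 0.622 to 2.52. That library also had the highest share of reads from the region, 4.41% from the 45 other microRNAs. MIR154B in visceral fat of the same sheep was at 29.4 (27 reads), where the others were at 133 to 146; this library alone of its group has an earlier number. MIR485 in perirenal fat of T cohort control sheep 098 was at 271.7 (80 reads), where the others were at 60.4 to 69.2, and this library alone of its group has a later number. MIR668 in epicardial fat of the same sheep was at 5.48 (9 reads), where the others were at 14.5 to 15.6.

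In the BPA cohort, MIR485 in visceral fat of BPA sheep 910 was at 260.1 (154 reads), where the others were at 108.8 to 119. MIR3959 in visceral fat of BPA sheep 918 was at 35.6 (31 reads), where the others were at 10.4 to 11.999, and this library alone of its group has an earlier number. MIR369 in subcutaneous fat of control sheep 924 was at 10.6 (17 reads), where the others were at 7.08 to 7.37. The part of library numbers in these values was not tested.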

How the results depend on the processing

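No single microRNA call was reversed in direction under any alternative run. Differences that were not called were not checked for this. Of 222 counts of called microRNAs recomputed, 206 were within 1.5 times the count reported, among them every count of 0 that stayed at 0. Of 405 single microRNA calls 352 held and 53 were lost, 30 of them on leaving out 1 sheep. In subcutaneous fat of prenatal T sheep the count of 0 became 1 with a pseudocount of 5, 2 with CPM and 2 after rescaling over the cohort, and 0 to 1 on leaving out a sheep; in epicardial fat it became 1 after rescaling and 0 to 1 on leaving out a sheep. Among the depots of T cohort controls the count of 5 became 1 in libraries numbered from 81, and 3 to 6 on leaving out a sheep (3 without sheep 131). In prenatal T sheep the count of 3 became 0 in libraries from 81, which hold fewer samples, and 1 to 5 on leaving out a sheep (1 without 185, 233 or 48, and 5 without 255). In BPA cohort controls the count of 3 became 0 to 3 (0 without sheep 924, 1 without 908). With the sheep as a block, for the pairing by animal, the counts were 6 and 3 among depots of control and prenatal T sheep and 3 and 6 in BPA cohort controls and BPA sheep, and beside the call of MIR323C given above it changed no call made without it. The cause of these changes was not tested. Rescaling was added as an alternative for the treatment comparisons after the data had been seen. The planned count-model tests were not run, and 10 fits within 1 range of library numbers could not be made, as too few libraries were left. Depth limits MIR381 and MIR487A most, with at most 3 reads in 37 and 28 of 48 libraries.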
